A study of Mus musculus with 8 samples.

Results

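The genes described here carry BMP and TGF-β signals in endothelial cells, the cells that line blood vessels. The 10 genes were listed by name for their roles in the pathway, with earlier results of these data known: the receptors Acvrl1, Eng, Bmpr2, Tgfbr1 and Tgfbr2, the ligand Tgfb2, the inhibitory SMADs Smad6 and Smad7, and the target genes Id1 and Id3. Each symbol matched 1 of the 54532 Ensembl genes in the deposited tables, and all 10 reached the level needed for testing, as did 11864 genes in all. RNA sequencing had been done on primary brain microvascular endothelial cells in culture, the cells of the blood-brain barrier, from wild type mice (4 libraries) and from mice lacking Cavβ3, labelled Cavb3 KO (4 libraries). Cavβ3 is the calcium channel β subunit encoded by Cacnb3. All cultures of both genotypes received medium with 20% fetal calf serum, fibroblast growth factor at 10 ng/mL, heparin at 100 ng/mL, penicillin and streptomycin. No other treatment, age, strain or knockout allele is given in the sources used here, and the design text calls the 4 replicates of a genotype independent.

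BMP9 and BMP10, which circulate in blood, bind on endothelium to the type I receptor ALK1 (Acvrl1), the type II receptor BMPR2 and the co-receptor endoglin (Eng). These receptors phosphorylate SMAD1 and SMAD5, which switch on the ID genes, inhibitors of helix-loop-helix transcription factors, and the inhibitory SMADs, which feed back on the receptors. TGF-β ligands bind TGFBR2, which activates TGFBR1 (ALK5) and SMAD2 and SMAD3. In humans, loss of 1 copy of ENG or ACVRL1 causes hereditary haemorrhagic telangiectasia, a disease of malformed vessels that can affect the brain.

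Values are taken as FPKM, fragments per kilobase of exon scaled to the assigned reads of the library. The table headers name no unit, and it was inferred from the values, whose steps gave a depth of 23491645 to 33813070 reads per library. Replicates 1 and 2 of both genotypes stood apart from replicates 3 and 4. Ddx3y, a Y-linked gene, was at 6.98 to 9.48 FPKM in the former and listed at 0 in the latter. Xist, an X-linked gene, was at 12.4 to 15.1 FPKM in the former and 28.3 to 43.3 FPKM in the latter. In all, 5419 of 11864 tested genes (45.7%) differed between these sets of libraries. The part of sex in the set difference was not tested. The labels name no batch, so values are given separately for each set. Cacnb3 did not follow the labels. Wild type replicates 1 to 4 held 3.38, 3.56, 1.12 and 0.980 FPKM of it, against 1.70, 2.09, 2.47 and 1.77 FPKM under the Cavb3 KO label. Every direction below therefore rests on the label. All 12 endothelial markers checked were expressed. Their summed level was 2383 to 2401 FPKM in wild type and 1854 to 1859 FPKM in the libraries labelled Cavb3 KO of replicates 1 and 2, and 1764 to 1870 and 1572 to 1604 FPKM in replicates 3 and 4. Markers of other cells summed to at most 28.6 FPKM (smooth muscle, wild type replicate 2) in any library. In bulk RNA, fewer cells of a type and less RNA per cell cannot be told apart.

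Endoglin was the most abundant of the 10 transcripts in each library, and Tgfbr1 had the lowest mean. Mean levels over the 8 libraries, per kilobase, fell in the order Eng (525 FPKM, 430.4 to 639), Id1 (382, 185 to 525), Id3 (272, 219 to 334), Acvrl1 (76.1, 53.7 to 96.9), Tgfbr2 (51.3, 31.6 to 68.9), Smad7 (51.1, 17.5 to 73.4), Bmpr2 (24.9, 22.3 to 29.45), Smad6 (16.0, 1.62 to 32.1), Tgfb2 (12.8, 2.98 to 24.8) and Tgfbr1 (6.48, 4.84 to 9.13). Ranges of neighbours in this order overlapped except for Id3 and Acvrl1. Eng lay above Id1, and Acvrl1 above Tgfbr2, in each of the 8 libraries, whereas Tgfbr2 lay above Smad7 in 3 of 8 and Tgfb2 above Tgfbr1 in 5 of 8. Smad6 varied most, 19.8-fold between its highest and lowest library, and Tgfb2 8.33-fold. Bmpr2 varied least, at 1.32-fold.

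**Figure D1:**
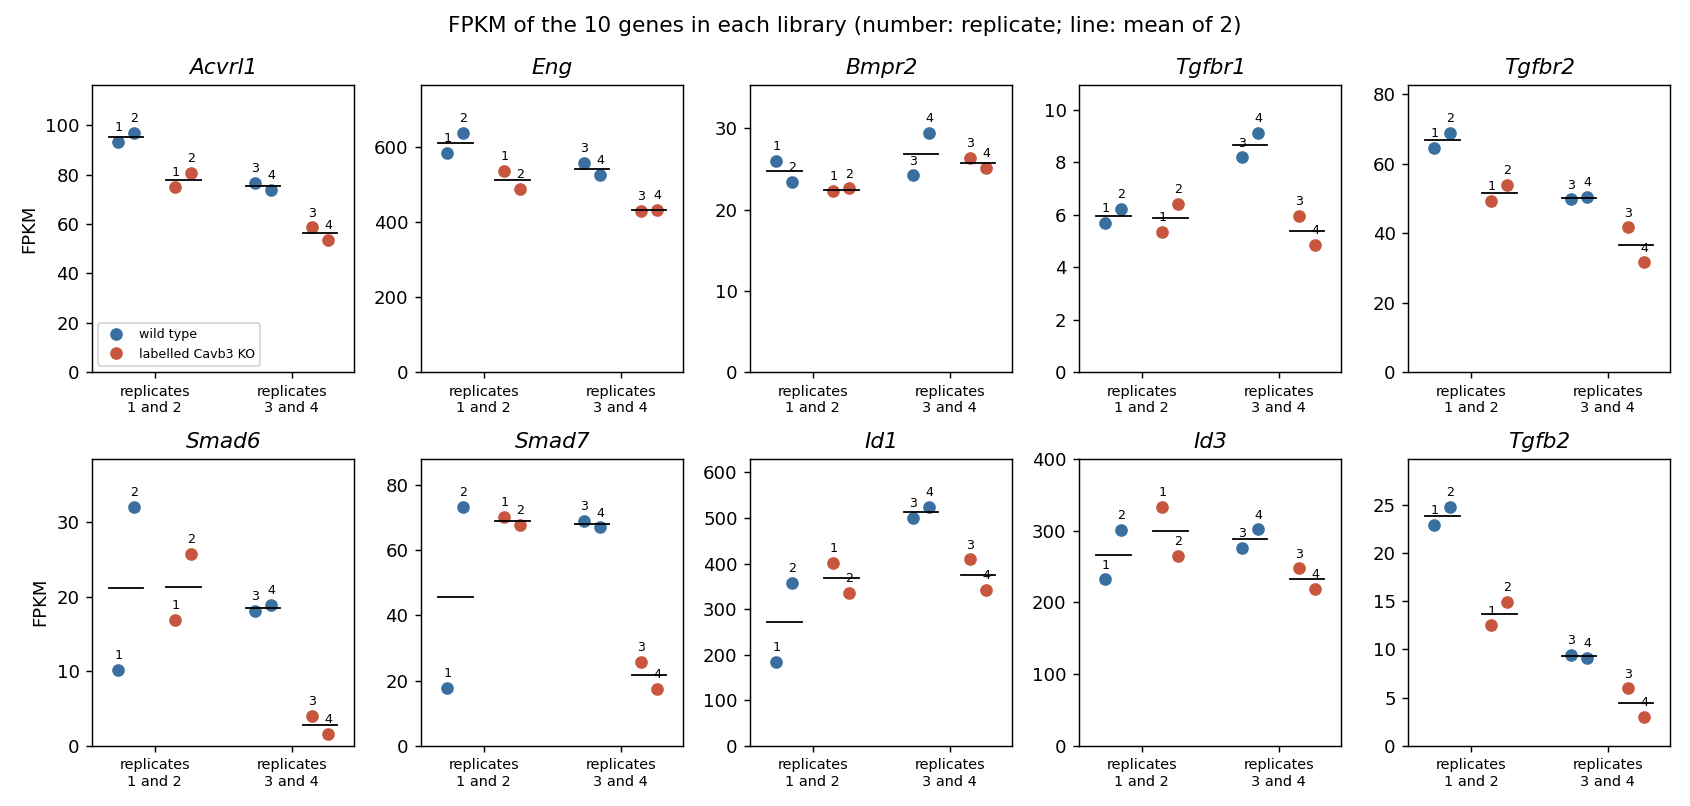
Each panel shows 1 gene, with FPKM on a linear axis from 0, replicates 1 and 2 on the left and 3 and 4 on the right. Dots are single libraries with their replicate number, and lines are means of 2 libraries. Acvrl1, Eng, Tgfbr2 and Tgfb2 are lower in the libraries labelled Cavb3 KO in both sets, and Smad6 and Smad7 are low in wild type replicate 1 and in replicates 3 and 4 labelled Cavb3 KO.

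Of the receptors of the endothelial BMP pathway, Acvrl1 and Eng lay lower without overlap under the Cavb3 KO label in each set, and Bmpr2 overlapped in replicates 3 and 4; none passed the test within a set. Acvrl1 (ENSMUSG00000000530) encodes ALK1 and lies on the plus strand of chromosome 15 at 101128522 to 101145336 (GRCm38, as all coordinates here). Wild type replicates 1 to 4 measured 93.2, 96.9, 76.6 and 73.8 FPKM. Replicates 1 to 4 labelled Cavb3 KO measured 75.0, 80.7, 58.6 and 53.7 FPKM. Within each set both of the latter lay below both wild type libraries, while over all 8 libraries the groups overlapped, because wild type replicates 3 and 4 lay below replicate 2 labelled Cavb3 KO. On average wild type had 85.1 ± 11.6 FPKM and the other genotype 67.0 ± 12.9 FPKM (SD, n = 4 each), with a ratio of 0.787. Genes were tested with limma, a linear model with variance shared across genes, on log2(FPKM + 1), and p-values were adjusted over all 11864 genes by Benjamini and Hochberg's method. Without a term for the set, Acvrl1 differed by -0.35 (95% interval -0.70 to 0.00, limma adjusted p = 0.890), and no gene passed 0.05 in that comparison (0%). At an unadjusted p under 0.05 there were 647 genes (5.45%; 3.26% lower), of the 10 only Eng, and limma-voom on recovered reads also called 0. With the set as a term Acvrl1 fell by 0.35 ± 0.06 (SE, limma adjusted p = 0.0474), the only one of the 10 genes to pass, where 75 genes or 0.632% passed in all (0.371% lower). The replicate number as a block in place of the set ended this call (limma adjusted p = 0.102) and all 75 calls. Leaving out any 1 library other than replicate 3 labelled Cavb3 KO ended the Acvrl1 call too, with estimates between -0.38 and -0.31 and limma adjusted p between 0.0581 and 0.176. So did a pseudocount of 0.1 (0.0512), no filter on low values (0.232) and quantile normalization (0.0578).

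Eng (ENSMUSG00000026814, chromosome 2, 32646595 to 32682669), whose product presents BMP9 to ALK1, measured 584, 639, 559 and 528 FPKM in wild type replicates 1 to 4. Under the Cavb3 KO label it measured 538, 488, 430.4 and 433 FPKM. The groups separated within each set and overlapped over all 8 libraries only through replicate 1 labelled Cavb3 KO and wild type replicate 4. The difference with the set term was -0.29 ± 0.06 (SE, limma adjusted p = 0.0698). Eng shares 61 of 4048 exon bases with Fpgs on the opposite strand, which reached 14.3 FPKM. Bmpr2 (ENSMUSG00000067336, chromosome 1, 59763400 to 59879014), the type II receptor that completes the BMP9 complex, was the steadiest of the receptors. Wild type replicates held 26.0, 23.4, 24.2 and 29.45 FPKM, and those labelled Cavb3 KO held 22.3, 22.6, 26.4 and 25.1 FPKM. Its groups overlapped in replicates 3 and 4, and the difference was -0.09 with a 95% interval of -0.26 to 0.07 (limma adjusted p = 0.534).

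Of the TGF-β receptors, Tgfbr2 resembled Acvrl1. Tgfbr2 (ENSMUSG00000032440, chromosome 9, 116084293 to 116175360, minus strand), the ligand-binding kinase, measured 64.55, 68.9, 49.7 and 50.5 FPKM across wild type replicates 1 to 4. The Cavb3 KO label had 49.3, 54.0, 41.7 and 31.6 FPKM. Both sets separated without overlap. The difference with the set term was -0.41 ± 0.09 (SE, limma adjusted p = 0.0697). It passed without replicate 3 labelled Cavb3 KO (limma adjusted p = 0.0361), among genes with an FPKM of at least 5 (0.0481) and with limma-voom (0.0496). Tgfbr1 (ENSMUSG00000007613, chromosome 4, 47353222 to 47414931), the type I partner, had a different pattern. In replicates 1 and 2 wild type had 5.69 and 6.23 FPKM and the Cavb3 KO label 5.36 and 6.40 FPKM, which overlapped. In replicates 3 and 4 wild type had 8.19 and 9.13 FPKM and the Cavb3 KO label 5.96 and 4.84 FPKM, without overlap. The difference was -0.02 ± 0.13 in the first set and -0.60 ± 0.13 in the second (SE, limma adjusted p = 0.970 and 0.141).

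Endothelial marker levels were set beside these receptors. With the set term all 12 markers had a negative difference, with a median of -0.24, and only Esam fell by the test. Single markers differed widely, from -0.04 for Vwf to -0.99 for Cldn5 and -1.12 for Egfl7. Abundant markers such as Cdh5 (-0.18) weigh most in a summed level. The summed marker level in the libraries labelled Cavb3 KO was 0.776 of wild type in replicates 1 and 2 and 0.874 in replicates 3 and 4. For comparison, the ratio was 0.819 and 0.747 for Acvrl1, 0.838 and 0.795 for Eng and 0.774 and 0.731 for Tgfbr2 in the same sets. The part of the marker level in the receptor values was not tested.

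The start of Acvrl1 lies 2497682 bases from that of Cacnb3 on chromosome 15. Of 108 tested genes, Acvrl1 among them, whose start was within 5 Mb of the start of Cacnb3, 3 passed with the set term, or 2.78% beside 0.632% of all genes. Acvrl1 and Dhh, a hedgehog ligand, fell and Snora2b, a small nucleolar RNA, rose. The window was examined because of Acvrl1, so Acvrl1 cannot count as support for that share. None of the 3 calls held with the replicate block. Dhh, 260312 bases from Cacnb3, averaged 6.90 ± 2.49 FPKM for wild type and 4.54 ± 1.77 FPKM for the Cavb3 KO label (SD, n = 4 each), with a difference of -0.51 ± 0.08 (SE, limma adjusted p = 0.0477). The median difference of the 108 genes was -0.02, and that of all tested genes was -0.02. None of them passed within either set alone. The part of the position near the targeted locus was not tested. A stretch of 127 of the 4265 exon bases of Acvrl1 is shared with Gm16031 on the opposite strand, which reached at most 1.81 FPKM. Without a stated use of strand, their reads cannot be told apart there. The genes whose log2(FPKM + 1) followed Acvrl1 most closely over the 8 libraries were Galns (Pearson r = 0.996), Smpd3 (0.994), Rbl1 (0.994), Rbpms (0.991) and Gphn (0.991), all of which share the same libraries and sets.

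Tgfb2 (ENSMUSG00000039239, chromosome 1, 186622792 to 186705989, minus strand), the TGF-β ligand of the list, differed most between the sets of the 10 genes (replicates 3 and 4 over 1 and 2, a ratio of 0.366). Wild type replicates 1 and 2 held 22.9 and 24.8 FPKM, and replicates 3 and 4 held 9.45 and 9.09 FPKM. Under the Cavb3 KO label the values were 12.5 and 14.9 FPKM and then 5.95 and 2.98 FPKM. The genotypes did not overlap in either set. The ratio of the genotypes was 0.575 in replicates 1 and 2 and 0.482 in replicates 3 and 4. With the set term the difference was -0.86 ± 0.16 (SE, limma adjusted p = 0.0638). It passed with limma-voom (0.0359), among genes with an FPKM of at least 5 (0.0457) and without replicate 3 (0.0330) or replicate 4 (0.0327) labelled Cavb3 KO. Between the sets Tgfb2 fell by 1.38 ± 0.16 from replicates 1 and 2 to replicates 3 and 4 (limma adjusted p = 0.00103). Smooth muscle markers summed to 22.5 and 28.6 FPKM in wild type replicates 1 and 2 and to 8.01 and 13.9 FPKM in those labelled Cavb3 KO. In replicates 3 and 4 they summed to 1.89 to 2.48 FPKM in either genotype. Their part in the Tgfb2 values was not tested in either set. Of the 5 smooth muscle markers, 2, Acta2 and Tagln, reached an FPKM of 1 in 4 or more libraries. Tgfb2 shares 124 of 5791 exon bases with Gm29491 on the opposite strand, which reached 0.762 FPKM.

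The inhibitory SMADs split the libraries in another way. Smad6 (ENSMUSG00000036867, chromosome 9, 63953076 to 64022059, minus strand), a target gene and inhibitor of the BMP branch, measured 10.2, 32.1, 18.1 and 18.9 FPKM across wild type replicates 1 to 4. It measured 16.9 and 25.8 FPKM in replicates 1 and 2 labelled Cavb3 KO but at 3.99 and 1.62 FPKM in replicates 3 and 4. Smad7 (ENSMUSG00000025880, chromosome 18), which inhibits both branches, measured 17.7, 73.4, 69.0 and 67.0 FPKM across wild type replicates 1 to 4. The Cavb3 KO label had 70.3, 67.8, 25.8 and 17.5 FPKM. Thus 5 of the 8 libraries held Smad7 between 67.0 and 73.4 FPKM, and wild type replicate 1 and replicates 3 and 4 labelled Cavb3 KO reached at most 25.8 FPKM. Counting error was small beside these gaps, as the lowest library held 122 reads of Smad6 and 1863 reads of Smad7.

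Within replicates 3 and 4 the genotype difference was -2.43 ± 0.52 for Smad6, a ratio of 0.152, and -1.63 ± 0.56 for Smad7, a ratio of 0.318. Neither passed (limma adjusted p = 0.153 and 0.272), and 6 genes or 0.0506% passed in that set, as in the other. Within replicates 1 and 2 the differences were 0.19 ± 0.52 and 0.91 ± 0.56 (SE, limma adjusted p = 0.932 and 0.584), with wild type replicates 1 and 2 far apart. Without wild type replicate 1 they became -0.60 for Smad6 and -0.09 for Smad7.

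Promoters from RefSeq (build GRCm38.p6, 250 bases before and 50 after the start site) matched 7 of the 10 genes: Bmpr2, Eng, Id3, Smad6, Tgfb2, Tgfbr1 and Tgfbr2. They were searched on both strands for 3 short SMAD-binding sequences known from reporter and binding studies: the palindrome GTCTAGAC, the shorter CAGAC (which does not lie within that palindrome) and the palindrome GGCGCC of BMP-responsive enhancers. The Smad6 promoter holds GTCTAGAC once, from base -4 across the start site, whereas 0.213% of 32851 promoters hold it. CAGAC is found in 49.6% of promoters and GGCGCC in 11.9%. The Id3 promoter holds CAGAC 2 times, at -167 and on the other strand at -68, Tgfb2 and Eng hold it 2 times each, and 1 of the 2 Tgfbr1 promoters and the Tgfbr2 promoter hold it once. GGCGCC stands once in the Bmpr2 promoter and once in the other Tgfbr1 promoter. The promoters of Smad6 and Id3, direct targets of the pathway, are shown. They were chosen after their values had been seen, as both genes were lowest in the same 3 libraries. Those libraries were picked from Smad6 and Smad7, and a link between the matches and these levels was not tested. Capitals mark the matches, and a match says nothing of binding in these cells.
Smad6, chr9:64022010-64022309, minus strand: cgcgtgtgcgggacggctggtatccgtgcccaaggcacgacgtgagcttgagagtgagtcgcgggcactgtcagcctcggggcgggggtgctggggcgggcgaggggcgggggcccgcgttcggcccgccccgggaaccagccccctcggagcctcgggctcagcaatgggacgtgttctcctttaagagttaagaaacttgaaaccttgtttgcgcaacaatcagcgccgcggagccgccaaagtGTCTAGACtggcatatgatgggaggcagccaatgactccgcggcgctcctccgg
Id3, chr4:136143572-136143871, plus strand: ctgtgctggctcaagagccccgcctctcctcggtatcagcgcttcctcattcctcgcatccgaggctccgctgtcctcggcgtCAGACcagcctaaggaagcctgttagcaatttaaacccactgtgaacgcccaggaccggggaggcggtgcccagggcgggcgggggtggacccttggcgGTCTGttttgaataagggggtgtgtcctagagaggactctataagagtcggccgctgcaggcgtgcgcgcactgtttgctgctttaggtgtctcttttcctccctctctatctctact

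The ID genes varied less than the SMADs and in part in the same libraries. Id1 (ENSMUSG00000042745, chromosome 2, 152736251 to 152737410) measured 185, 357, 501 and 525 FPKM across wild type replicates 1 to 4 and 402, 335, 409 and 342 FPKM under the Cavb3 KO label. Wild type replicate 1 was the lowest and wild type replicates 3 and 4 the highest of all libraries, so the group means of 392 ± 157 and 372 ± 39.0 FPKM (SD, n = 4 each) nearly coincided. Id3 (ENSMUSG00000007872, chromosome 4, 136143497 to 136145755) measured 232, 301, 276 and 302 FPKM across wild type replicates 1 to 4 and 334, 265, 247.5 and 219 FPKM under the Cavb3 KO label. In replicates 3 and 4 both genes were lower in the libraries labelled Cavb3 KO without overlap, with ratios of 0.732 for Id1 and 0.807 for Id3. In replicates 1 and 2 they overlapped, with ratios of 1.36 and 1.12. With the set term the differences were 0.03 for Id1 (95% interval -0.57 to 0.62) and -0.07 for Id3 (-0.39 to 0.25). Without wild type replicate 1 they became -0.26 and -0.19 (limma adjusted p = 0.341 and 0.391), and the Id1 difference within replicates 1 and 2 moved from 0.51 to 0.04. The genes most like Id1 over the 8 libraries were Dusp2 (Pearson r = 0.959), Fam8a1 (0.958), Prss22 (0.957), Bcl9l (0.957) and Gm37352 (0.941).

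Over the 10 genes, all had a negative difference within replicates 3 and 4, with a median of -0.45, and 6 had one within replicates 1 and 2, with a median of -0.08. The medians of all tested genes were -0.02 in both sets. Groups separated downward in 9 of 10 genes within replicates 3 and 4, where 25.8% of all genes did so, and in 5 of 10 within replicates 1 and 2, where 28.9% did. Acvrl1, Eng, Tgfbr2 and Tgfb2 separated downward in both sets, as did 12.2% of tested genes. Over all 8 libraries 0 of the 10 separated (2.5% of all genes lower and 1.64% higher). With the set term 5 of the 10 had an unadjusted p under 0.05, all of them lower, beside 13.3% of genes lower at that level. Within replicates 1 and 2 this held for 4 of the 10 (7.43% of all genes) and within replicates 3 and 4 for 7 (10.1%).

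**Figure D2:**
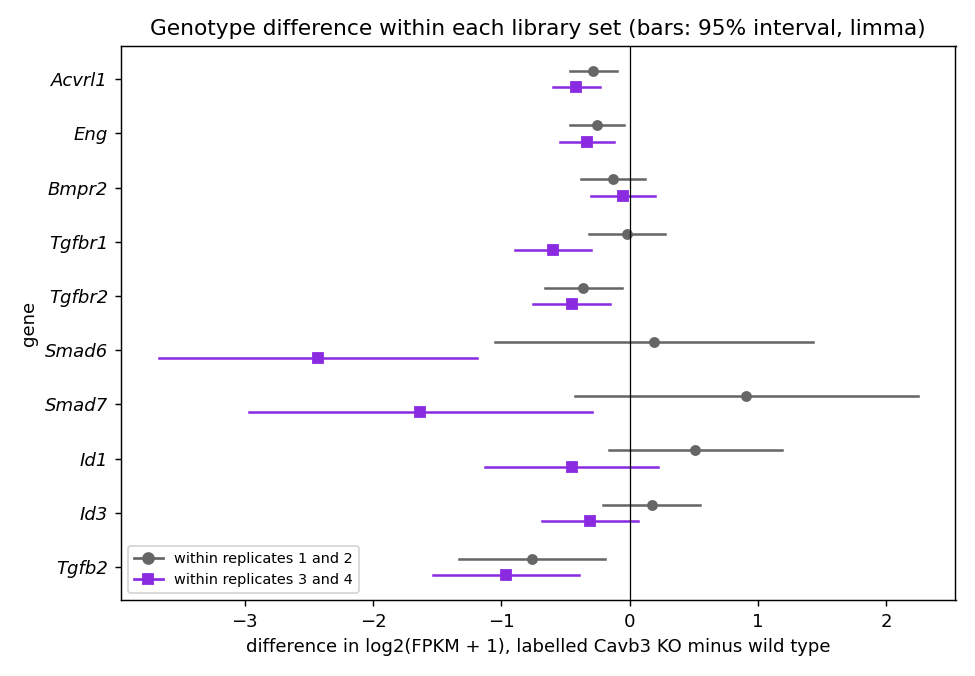
The horizontal axis gives the difference in log2(FPKM + 1), libraries labelled Cavb3 KO minus wild type, within replicates 1 and 2 (grey circles) and within replicates 3 and 4 (purple squares), with 95% intervals from limma. Acvrl1, Eng, Tgfbr2 and Tgfb2 lie below 0 in both sets, whereas Smad6 and Smad7 lie at 0.19 and 0.91 in the first set and at -2.43 and -1.63 in the second.

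None of the 10 passed within a set when all 8 libraries were used. Without replicate 3 labelled Cavb3 KO, when 418 genes passed in place of 6, Acvrl1, Tgfbr1, Tgfbr2 and Tgfb2 passed within replicates 3 and 4 (limma adjusted p of 0.0450, 0.0450, 0.0342 and 0.0220), with replicate 4 the lone library of its arm. Smad7 passed within replicates 3 and 4 without wild type replicate 1 or without wild type replicate 2, with its estimate unchanged at -1.63. Those replicates, at 17.7 and 73.4 FPKM, lie outside that set, and leaving out either took their gap out of the pooled spread. The pass therefore adds nothing on replicates 3 and 4.

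Whether the genotype difference itself differed between the sets was tested with an interaction term. None of the 10 genes passed (1 of 11864 genes or 0.00843% did). The estimates, second set minus first, were -2.62 ± 0.74 for Smad6, -2.54 ± 0.79 for Smad7, -0.96 ± 0.40 for Id1 and -0.58 ± 0.18 for Tgfbr1 (SE, limma adjusted p of 0.559, 0.629, 0.793 and 0.610). These 4 had an unadjusted p under 0.05, a level reached with a negative estimate by 3.84% of all genes. For Acvrl1, Eng and Tgfbr2 the estimates were -0.13 (95% interval -0.39 to 0.13), -0.08 (-0.37 to 0.22) and -0.09 (-0.51 to 0.33). Without wild type replicate 2 the Smad7 estimate was -3.54, and without wild type replicate 1 it was -1.54. Either fit leaves 1 wild type library alone in replicates 1 and 2. Neither can therefore decide whether the Smad7 difference depends on the set.

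The libraries in which Smad6 and Smad7 were low were then followed through the pathway. This pattern was picked after its values had been seen and is a description only. Wild type replicate 1 and replicates 3 and 4 labelled Cavb3 KO were the 3 lowest libraries for 3 of the 10 genes, Smad6, Smad7 and Id3, and for 6 of 47 other tested genes of a wider BMP and TGF-β list. The share among all tested genes was 2.05%. Smad6 and Smad7 meet the pattern by choice, as the 3 libraries were picked from them, so they cannot be set beside that share. Nor can Id3 and the 6 others count as independent support, as both lists were written with earlier results of these data known. The 6 were Hey1, Nog, Atoh8, Ski, Skil and Tgfb1. Id3, Atoh8 and Tgfb1 met the pattern narrowly. In the highest of the 3 libraries they were at 247.5, 2.46 and 18.3 FPKM. The lowest of the other 5 held 265, 2.70 and 19.5 FPKM. Hey1, a transcriptional repressor induced by BMP9 and by Notch, was at 1.19 FPKM in wild type replicate 1 and at 0.943 and 1.33 FPKM in replicates 3 and 4 labelled Cavb3 KO, but at 9.68 to 20.0 FPKM in the other 5 libraries. Nog, which encodes the secreted BMP antagonist noggin, was at 0.226 to 0.722 FPKM in the 3 libraries and at 2.25 to 6.31 FPKM in the other 5. Skil and Ski encode co-repressors of SMADs. Skil was at 27.5 to 33.9 FPKM against 36.6 to 53.0 FPKM and Ski at 13.4 to 21.9 against 23.2 to 28.1 FPKM. Acvrl1 and Eng did not share this order, as both were high in wild type replicate 1. The implied depth was 27228575 reads in wild type replicate 1, and replicates 3 and 4 labelled Cavb3 KO, at 23703451 and 23491645 reads, were the shallowest of the 8 libraries (24946878 to 33813070 in the other 5). The part of depth in this pattern was not tested.

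**Figure D3:**
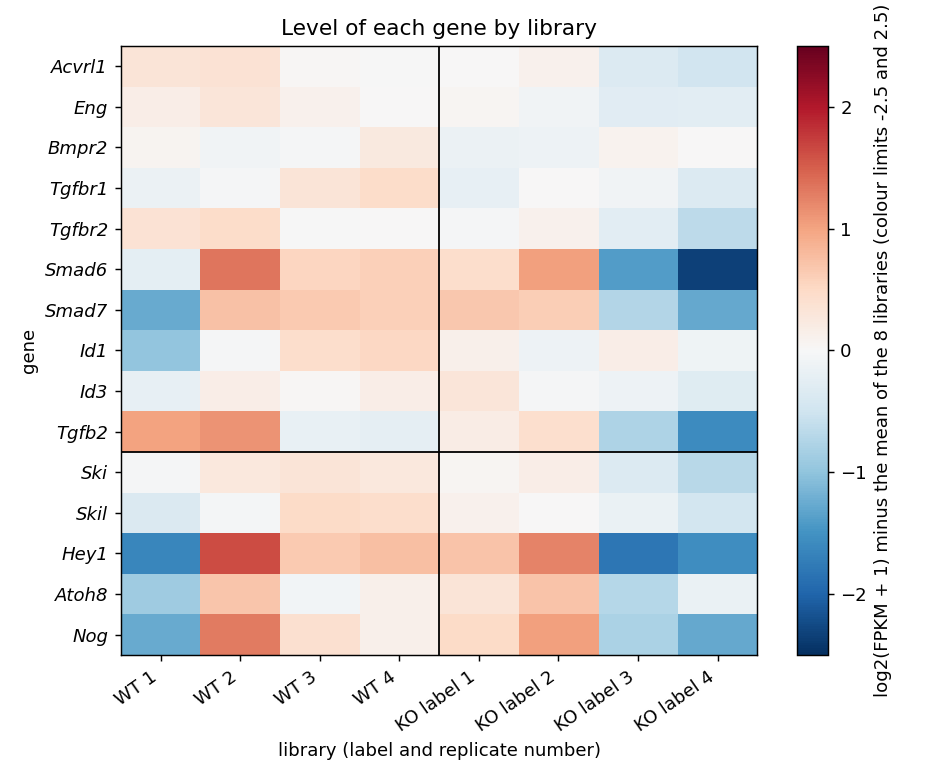
Colours give log2(FPKM + 1) minus the gene's mean over the 8 libraries, with genes in rows and libraries in columns. The 10 genes stand above the horizontal line, and 5 genes of the wider list chosen after their values were seen stand below it. Smad6, Smad7, Hey1 and Nog are blue in wild type replicate 1 and in replicates 3 and 4 labelled Cavb3 KO, while Acvrl1 and Tgfb2 are red in wild type replicate 1.

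The wider list held 80 genes by role, of which 57 were expressed enough to be tested. With the set term 45 of the 57 had a negative difference, with a median of -0.20, beside 55.8% of all genes and a median of -0.02. Acvrl1 was the only one to pass. Without the 10 genes, 36 of 47 had a negative difference, with a median of -0.16. All 8 tested ligands had a negative difference, with a median of -0.51, and none passed. Bmp6, a BMP made by endothelium, was at 2.37 ± 0.954 and 1.12 ± 0.781 FPKM (SD, n = 4 each), a difference of -0.69 (limma adjusted p = 0.0833). Gdf15, a stress-induced family member with the highest mean of the ligands over the 8 libraries but below Tgfb1 in replicates 3 and 4 (10.4 and 18.7 FPKM), was at 24.5 ± 14.4 and 15.6 ± 7.88 FPKM (-0.55, limma adjusted p = 0.0660). Tgfb1 and Bmp4 differed by -0.20 and -0.50. Gdf2, which encodes BMP9, was listed at 0 in every library, and Bmp10 reached at most 0.0474 FPKM.

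Among the 10 tested receptors, 9 had a negative difference (median -0.20). The exception, Bmpr1a, a type I BMP receptor named after its values were seen, was at 1.97 ± 0.416 and 3.25 ± 1.36 FPKM (SD, n = 4 each; 0.47, limma adjusted p = 0.302). Of 5 effector SMADs 4 were negative (median -0.16), with Smad4 at -0.15, Smad2 at 0.02 and Smad1 at -0.16. Smad3, which carries TGF-β signals, came nearest to the threshold (13.7 ± 3.22 and 10.3 ± 2.48 FPKM, -0.38 ± 0.07 SE, limma adjusted p = 0.0572). Of 11 inhibitory SMADs and intracellular inhibitors 10 were negative (median -0.36). They included Fkbp1a (-0.27), which encodes a protein that holds type I receptors inactive, and Smurf2 (-0.36), a ubiquitin ligase for the receptors.

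Of 9 tested target genes 6 had a negative difference (median -0.32). Ccn2, a matricellular growth factor, was at 652 ± 42.0 and 523 ± 51.0 FPKM (SD, n = 4 each; -0.32, limma adjusted p = 0.0653), and Thbs1, an activator of latent TGF-β, differed by -0.63 (limma adjusted p = 0.0660). Angptl4, an inhibitor of lipoprotein lipase, differed by -0.63 and Id2 by 0.25. Of 7 extracellular antagonists 4 were positive (median 0.08), with Fstl1 at -0.50, Twsg1 at -0.13 and Nbl1 at 0.24. Of 7 genes of latency and presentation 5 were negative (median -0.04). The values were -0.78 for Lrrc32, which anchors latent TGF-β on cells, -0.04 for the integrin subunit Itgav and 0.06 for Ltbp3.

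**Figure D4:**
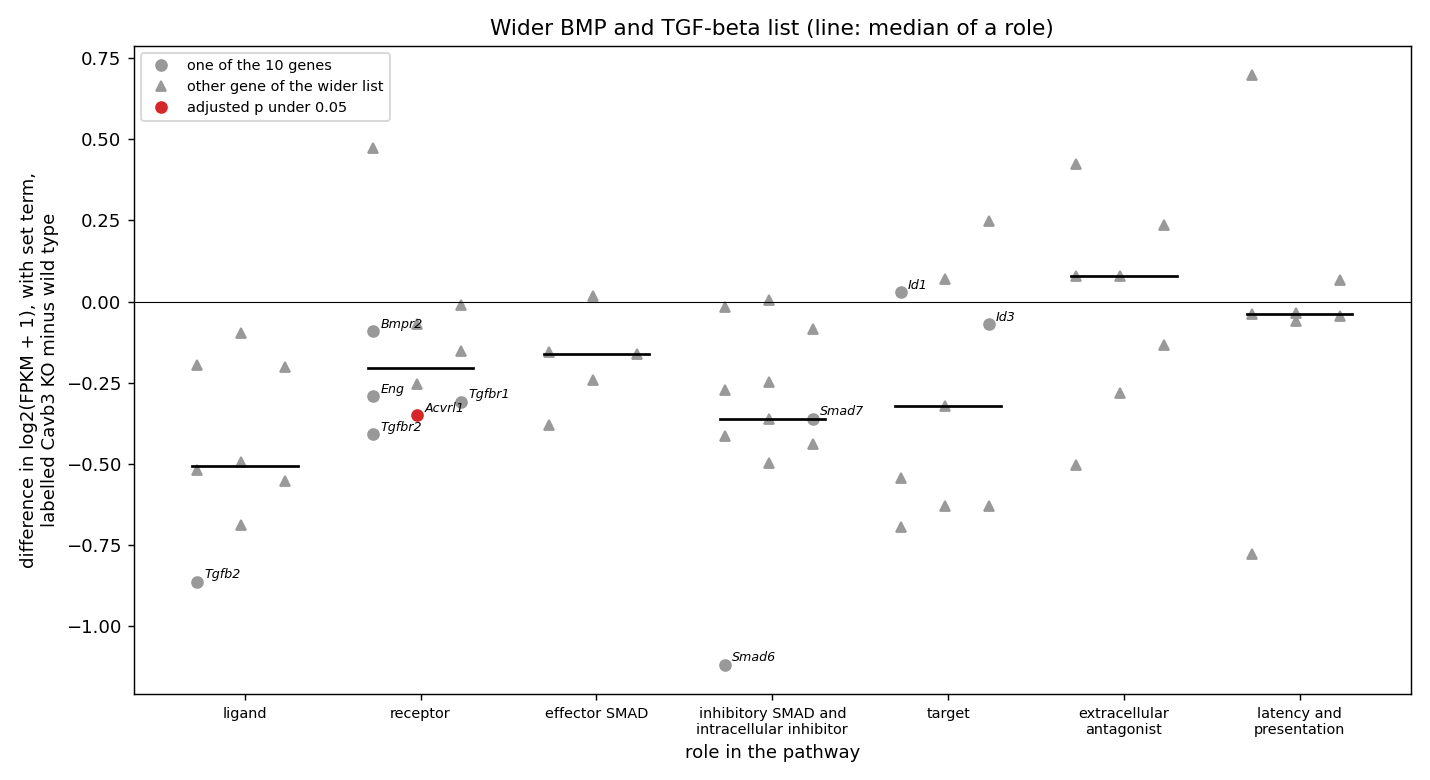
Each point is 1 of the 57 tested genes, placed by role, with the difference in log2(FPKM + 1) from the fit with the set term on the vertical axis. Circles with names are the 10 genes, triangles the others, lines the median of a role, and red marks Acvrl1, the only gene with an adjusted p under 0.05.

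More genes of the pathway passed between the sets of libraries than between the genotypes. The same held for all tested genes, of which 45.7% passed between the sets and 0.632% between the genotypes with the set term. Of the 10 genes, Acvrl1, Eng, Tgfbr2 and Tgfb2 fell from replicates 1 and 2 to replicates 3 and 4 (differences of -0.40, -0.21, -0.45 and -1.38, limma adjusted p of 0.00103 to 0.0266), and none rose in that fit. Bmpr2 rose with limma-voom (0.20, adjusted p = 0.0457) and without wild type replicate 3 (0.21, limma adjusted p = 0.0379). The Eng call was lost without the filter on low values (limma adjusted p = 0.0515), without wild type replicate 2 or 4 or without replicate 1, 3 or 4 labelled Cavb3 KO (-0.20 to -0.17, limma adjusted p of 0.0524 to 0.0880). Without wild type replicate 1 Smad6 (-1.87, limma adjusted p = 0.0126) and Smad7 (-1.03, limma adjusted p = 0.0350) passed too. Over all genes 25.8% fell and 19.8% rose. In the wider list 22 of 57 fell (18 of 47 without the 10 genes) and 2, among them Id2 (0.51), rose. Those that fell included 6 of 8 ligands (Gdf15 at -1.40, Bmp4 at -1.08, Inhba at -1.01, Bmp6 at -0.67 and Gdf11 at -0.56 besides Tgfb2), Acvr1b (-0.42), Smad1 (-0.36) and Smad3 (-0.54). Among inhibitors and antagonists Smurf1 (-1.01), Smurf2 (-0.61), Fkbp1a (-0.52), Tgif1 (-0.39), Grem1 (-1.44), Fstl1 (-1.26) and Fstl3 (-0.39) fell, and so did Thbs1 (-0.81), Angptl4 (-0.76) and Itgav (-0.24). The 4 genes of the 10 that fell between the sets also separated downward under the Cavb3 KO label in both sets. The share of all genes that did both was not computed, so no link is drawn.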

How the data were processed

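Total RNA was purified with a column kit and made into libraries with an NEBNext Ultra kit, per the labels' protocols. Reads were aligned with HISAT2 2.0.5, per the submitters' processing notes. How reads were counted, on which build and annotation and whether by strand is not given in the sources used here. From the authors came 1 deposited table per library. Its header names no unit, and FPKM was inferred from the deposited values: multiplied by exon lengths of GENCODE M21 (GRCm38), 96.48% to 96.78% of values above 0 were whole multiples of 1 constant per library (tolerance 0.01), which gave depth and recovered reads, and intervals on reads cover counting error only.

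The 10 genes, the wider list and the sets of libraries were chosen with earlier results of these data known. Tests used limma 3.58.1 (R 4.3.3; trend, robust) on log2(FPKM + 1) for genes reaching an FPKM of 1 in 4 or more libraries, which understates changes of low genes. The models held genotype alone, genotype and set, or the 4 combinations of genotype and set, with calls at an adjusted p under 0.05 (Benjamini-Hochberg). Within-set contrasts of 2 against 2 libraries use the spread pooled over all 8. The models were tested on simulated data. Same-numbered libraries deviated together from their group means (correlations over genes 0.41, 0.75, 0.40 and 0.52), above the criterion of 0.1 for pairing in every pair. Different numbers of the same set correlated as well: wild type replicates 1 to 4 with replicates 2, 1, 4 and 3 labelled Cavb3 KO at 0.41, 0.69, 0.70 and 0.57. The check therefore cannot tell pairing by number from the sets, and the replicate block was used as an alternative only. The text names the 10 genes, the 3 most abundant genes of each role of the wider list, and those that passed in any fit. Gdf2 and Bmp10, the genes of BMP9 and BMP10, are named outside this rule. Others are named as chosen after their values were seen. For 1 gene of the wider list that the rule covers, no values are reported here; counts by role include it. Alternatives were another pseudocount, other filters, quantile normalization, limma-voom on recovered reads, the replicate block and leaving out each library. Python 3.11.15 with pandas 2.3.3 was used for the rest.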

Additional observations from a re-analysis of the deposited data

Results flagged for a closer look

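Smad7 in wild type replicate 1, at 17.7 FPKM, stood apart from the other 3 wild type libraries, which were at 67.0 to 73.4 FPKM. The gap to the nearest library was 0.885 of the whole range of the group, above Dixon's 95% critical value for 4 libraries. It was 1 of 20 groups examined (10 genes in 2 genotypes), and chance flags about 1 in 20 groups. Id1 and Smad6 were also lowest of the wild type libraries there (185 and 10.2 FPKM).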

How the results depend on the processing

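The count of genes passing without the set term was 0 under every alternative run. With the set term it was 75, and 0 without a filter on low values, 193 among genes with an FPKM of at least 5, 216 with limma-voom, 0 with the replicate block and 0 to 322 when 1 library was left out (322 without replicate 3 labelled Cavb3 KO). Between the sets 5419 genes passed, and 3530 with the filter at 5 (fewer genes were tested), with 3901 to 5518 when 1 library was left out. Within replicates 1 and 2 the count was 6, and 0 without a filter, 15 at an FPKM of 5, 12 with quantile normalization, 32 with limma-voom, 0 with the replicate block and 0 to 10 without 1 library. Within replicates 3 and 4 it was 6, and 29 without a filter, 12 with limma-voom, 1 with the replicate block and 1 to 418 without 1 library. For the interaction it was 1, and 2 with a pseudocount of 0.1 or limma-voom, and 1 to 58 without 1 library. Apart from the fewer genes tested, the cause was not tested. Quantile normalization changed the split with the set term from 31 higher and 44 lower to 38 and 30. Where a set lost 1 library, the lone library of an arm was assumed to vary like the others.

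The Acvrl1 difference with the set term stayed negative in 14 of 14 alternatives (-0.38 to -0.31), and its limma adjusted p ran from 0.0326 to 0.232. Tgfbr2 (-0.48 to -0.32), Tgfb2 (-1.004 to -0.68) and Eng (-0.33 to -0.20) also stayed negative in 14 of 14, Eng never passing. For Id1 the sign held in 11 of 14 and for Id3 in 12 of 14. No called value changed sign. The replicate block changed no other call of the 10 genes than that of Acvrl1, and the set difference cannot be fitted with it. Each receptor held at least 743 reads in every library, and Smad6 rests on 122 reads in its lowest library. These counts bear on counting error only, and the part of depth in the receptor values was not tested.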
